A study of Mus musculus with 3 samples.

Results

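Divergent lncRNA promoters are promoters at which a long noncoding RNA (lncRNA) gene and a protein-coding gene start head to head on opposite strands. The members were the lncRNA genes of the mouse GENCODE annotation whose 5′ end lay at most 2000 bp upstream of the 5′ end of a coding gene on the other strand. Of 10155 lncRNA genes, 778 met this rule, which used the annotation alone. They faced 773 coding genes, since 5 coding genes had more than 1 such neighbour. The 5′ ends of a pair lay at a median of 160.5 bp from each other (quartiles 89 and 375.25 bp, range 1 to 1993 bp). The study mapped 3 marks by chromatin immunoprecipitation sequencing in F123 cells, a male hybrid mouse embryonic stem cell line from a cross of S129/Jae and Cast mice. The cells were grown on inactivated mouse fibroblast feeders and then passaged without feeders, with the dose of leukemia inhibitory factor doubled. The marks were H3K27me3, detected with rabbit antibodies, and the forms of RNA polymerase II that carry phosphate on serine 5 (Pol2-S5p, antibody clone CTD4H8) or serine 7 (Pol2-S7p, clone 4E12) of the C-terminal repeats. Each mark had 1 library from this 1 line, so no value below has a replicate check and no test was run. Intervals are at 95% and cover counting error only. Those of shares are exact.

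Most mammalian CpG-rich promoters can start transcription in both directions, and many lncRNAs of stem cells arise as the upstream arm of such a promoter. Pol2-S5p is carried by polymerase at and just after initiation, also at Polycomb-bound genes, while Pol2-S7p marks polymerase at productively transcribed genes. H3K27me3 is deposited by Polycomb repressive complex 2 over developmental genes that are silent or weakly expressed in stem cells. Transcription on the lncRNA arm usually ends early, as early poly(A) signals are more frequent and splice sites less frequent upstream of coding genes.

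The sequence between the 5′ ends is what both genes share, so it is shown for 8 pairs named below that cover the main chromatin states. Each run goes 5′ to 3′ on the strand of the coding gene, with the lncRNA 5′ end at the first base and the coding 5′ end at the last, in mm10 coordinates. CpG dinucleotides, the bases that set CpG islands apart, are in capitals. The first pair of lines comes from promoters with H3K27me3 and Pol2-S5p, the next 3 from promoters with all 3 marks, the next pair from promoters with both polymerase marks alone and the last from a promoter with no mark.
Haglr to Hoxd1, chr2:74762896-74762980, plus strand: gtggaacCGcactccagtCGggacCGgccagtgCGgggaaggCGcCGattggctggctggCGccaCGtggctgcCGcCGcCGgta
Lhx1os to Lhx1, chr11:84525535-84525660, minus strand: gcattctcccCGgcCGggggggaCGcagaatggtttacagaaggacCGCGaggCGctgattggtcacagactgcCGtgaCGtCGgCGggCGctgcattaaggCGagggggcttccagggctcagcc
Gm28793 to Hoxd9, chr2:74697586-74697727, plus strand: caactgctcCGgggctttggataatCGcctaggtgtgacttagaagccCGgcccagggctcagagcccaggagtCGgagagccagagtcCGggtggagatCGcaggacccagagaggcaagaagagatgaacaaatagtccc
Snhg18 to Sema5a, chr15:32244662-32244810, plus strand: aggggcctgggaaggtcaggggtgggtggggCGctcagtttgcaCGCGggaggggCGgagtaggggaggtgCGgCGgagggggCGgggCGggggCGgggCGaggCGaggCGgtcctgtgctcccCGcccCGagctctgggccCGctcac
5930412G12Rik to Fzd10, chr5:128600693-128600844, plus strand: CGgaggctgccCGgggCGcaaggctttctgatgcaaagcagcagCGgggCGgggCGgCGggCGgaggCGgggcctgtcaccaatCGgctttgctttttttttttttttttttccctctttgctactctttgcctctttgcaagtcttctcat
Snhg1 to Slc3a2, chr19:8723369-8723475, minus strand: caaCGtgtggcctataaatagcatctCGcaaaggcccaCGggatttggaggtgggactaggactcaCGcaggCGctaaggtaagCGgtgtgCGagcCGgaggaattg
Platr23 to Zfp281, chr1:136624650-136624901, plus strand: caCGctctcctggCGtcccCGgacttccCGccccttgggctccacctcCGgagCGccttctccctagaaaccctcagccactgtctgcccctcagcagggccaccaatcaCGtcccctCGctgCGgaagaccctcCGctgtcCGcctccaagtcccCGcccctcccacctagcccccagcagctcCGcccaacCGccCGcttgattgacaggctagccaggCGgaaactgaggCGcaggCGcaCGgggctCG
Gm13629 to Scn1a, chr2:66440840-66440880, minus strand: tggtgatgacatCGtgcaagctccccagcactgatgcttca
The span of Platr23 and Zfp281 held 20 CpG in 252 bases, that of Haglr and Hoxd1 held 11 in 85 bases, and that of Gm13629 and Scn1a held 1 in 41 bases. The spans of Haglr, Lhx1os, 5930412G12Rik and Platr23 each held 1 CCAAT box (CCAAT, on either strand), and the GC box (GGGCGG, on either strand) was found 5 times between Snhg18 and Sema5a, 4 times between Platr23 and Zfp281, 3 times between 5930412G12Rik and Fzd10 and in no other of these spans. The span of Snhg1 held the only match to TATAAA among the 8.

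The deposited lists held 17342 H3K27me3, 29222 Pol2-S5p and 22320 Pol2-S7p regions, which covered 236.4, 330.1 and 261.1 Mb. Library depth was not used here. Of 10 pluripotency markers, 6 had both polymerase marks without H3K27me3, 3 had all 3 marks and Esrrb had H3K27me3 only. Of 10 fibroblast markers, which would show feeder cells, 0 had both polymerase marks without H3K27me3 and Pdgfra had all 3 marks. Thy1, Pdgfrb and Twist2 had H3K27me3 with Pol2-S5p, Col1a1 and Col1a2 had H3K27me3 only, and 4, among them Col3a1 and Dcn, had none.

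The first question was which marks the lncRNA promoters carried. A mark was counted as present where at least 1 bp of its regions fell in the 2 kb centred on the 5′ end. The 5′ ends of a pair lay a median of 160.5 bp apart, so most lncRNA windows also held the coding 5′ end. The part of the coding promoter in the shares below was not tested. PRCa is the study's name for its mixed Polycomb and active state, and PRCr stands here for a repressed Polycomb state. Active windows hold both polymerase marks but no H3K27me3, and PRCa windows hold all 3 marks. PRCr windows hold H3K27me3 together with Pol2-S5p but lack Pol2-S7p, and Inactive windows hold no mark. Active windows were the most frequent among the divergent lncRNA genes, with 371 of 778 (47.7%, interval 44.1% to 51.3%), against 18.1% of all lncRNA genes. PRCa windows numbered 233 (29.9%, interval 26.7% to 33.3%), against 11.6%. PRCr windows numbered 58 (7.46%, interval 5.71% to 9.53%), against 5.40%, which lies just under the lower bound of the interval. H3K27me3 stood alone at 39 windows (5.01%), against 10.4%, and 72 windows were Inactive (9.25%, interval 7.31% to 11.5%), against 49.6%. The remaining windows were 3 with Pol2-S5p only, against 3.55%, and 2 with H3K27me3 and Pol2-S7p, against 0.236%. Pol2-S7p only was found at 0 windows, for which the exact upper bound was 0.473%, against 1.08%.

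By single mark, Pol2-S5p touched 665 lncRNA windows (85.5%), against 38.7% of all lncRNA genes. Pol2-S7p touched 606 (77.9%), against 31.0%, and H3K27me3 touched 332 (42.7%), against 27.6%. Any mark at all was present at 706 windows (90.7%), against 50.4% of all lncRNA genes. The 773 coding partners, whose windows largely overlap those of the lncRNAs, had shares close to those of the lncRNA side. They were Active at 367 windows (47.5%), against 33.6% of all coding genes, and PRCa at 240 (31.0%), against 24.6%. PRCr was found at 60 partners (7.76%), against 7.37%, and H3K27me3 alone at 33 (4.27%), against 7.22%. Inactive windows numbered 69 (8.93%), against 25.2%. Pol2-S5p only was found at 3 partners, against 1.23%, H3K27me3 with Pol2-S7p at 1, against 0.214%, and Pol2-S7p only at 0, against 0.479%. By single mark, Pol2-S5p touched 86.7% of partner windows, against 66.9%, Pol2-S7p 78.7%, against 59.0%, and H3K27me3 43.2%, against 39.4%. Stand-alone lncRNA genes, whose 5′ end lay over 5 kb from every coding gene, had Pol2-S5p at 18.4% of 5348 windows, were Active at 7.63% and Inactive at 68.8%. Coding genes with no head-to-head partner were Active at 30.1% of 19381 windows, below the divergent lncRNA genes, and PRCa at 24.2%. Coding genes that faced another coding gene were Active at 67.2% of 1696 windows, above the divergent lncRNA genes, and PRCa at 25.6%.

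**Figure D1:**
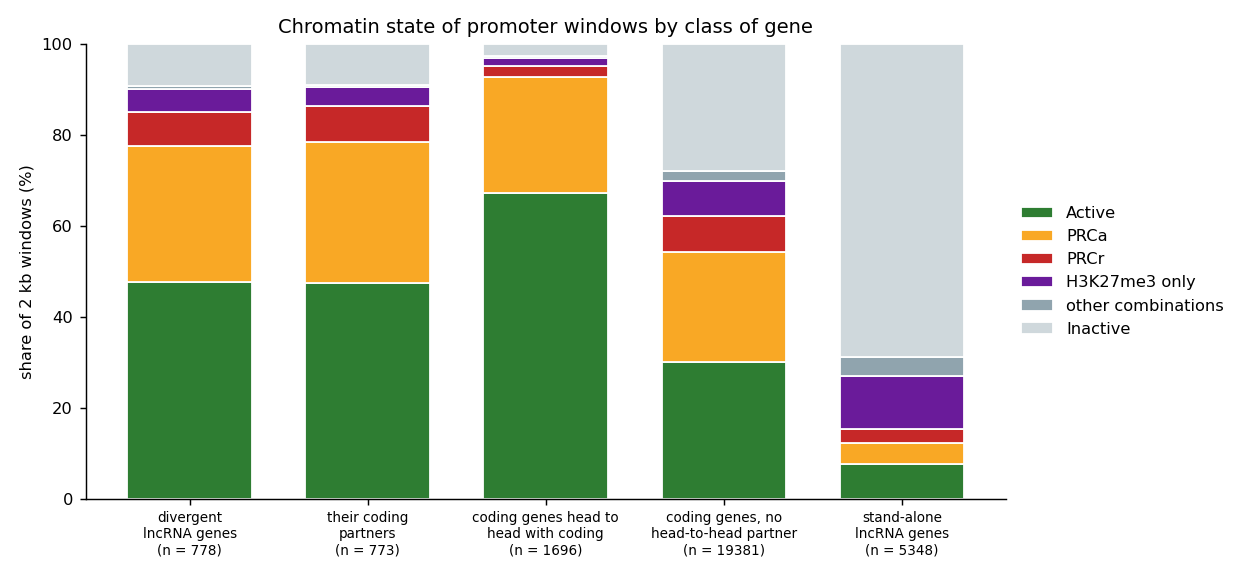
Each bar splits the 2 kb windows of a class of genes by chromatin state, in percent of the windows, with the number of genes under the bar. Divergent lncRNA genes, at 47.7% Active and 9.25% Inactive, stand beside their coding partners at 47.5% Active and 8.93% Inactive, and stand-alone lncRNA genes are at 7.63% Active and 68.8% Inactive.

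The classes also differ in CpG content, which is given here beside the states. The ratio of observed to expected CpG in the 2 kb window had a median of 0.625 in divergent lncRNA genes, 0.649 in their coding partners and 0.199 in stand-alone lncRNA genes. Within the divergent lncRNA genes it was 0.671 at Active, 0.674 at PRCa, 0.577 at PRCr, 0.252 at H3K27me3 only and 0.156 at Inactive windows. At a ratio of 0.6 and over, 420 of 423 divergent lncRNA windows had Pol2-S5p (99.3%), against 94.9% of 99 stand-alone windows. At 0.4 to 0.6 the shares were 97.0% of 167 divergent windows (interval 93.2% to 99.0%) and 50.7% of 300 stand-alone windows (interval 44.9% to 56.5%). At 0.2 to 0.4 they were 59.3% of 118 divergent windows (interval 49.9% to 68.3%) and 22.5% of 2249 stand-alone windows (interval 20.8% to 24.3%). Under 0.2 they were 18.6% of 70 divergent windows and 8.48% of 2700 stand-alone windows. All 72 Inactive members had a ratio under 0.4. Coding genes with no head-to-head partner had Pol2-S5p at 99.1%, 91.2%, 46.2% and 12.4% of windows in the same classes of CpG content, taken downward. In each class of CpG content below 0.6, the intervals of divergent and stand-alone lncRNA windows did not overlap. Under 0.2, the interval of divergent windows held the 12.4% of coding genes with no head-to-head partner. The parts of CpG content and of the nearby coding 5′ end in the whole difference were not tested.

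**Figure D2:**
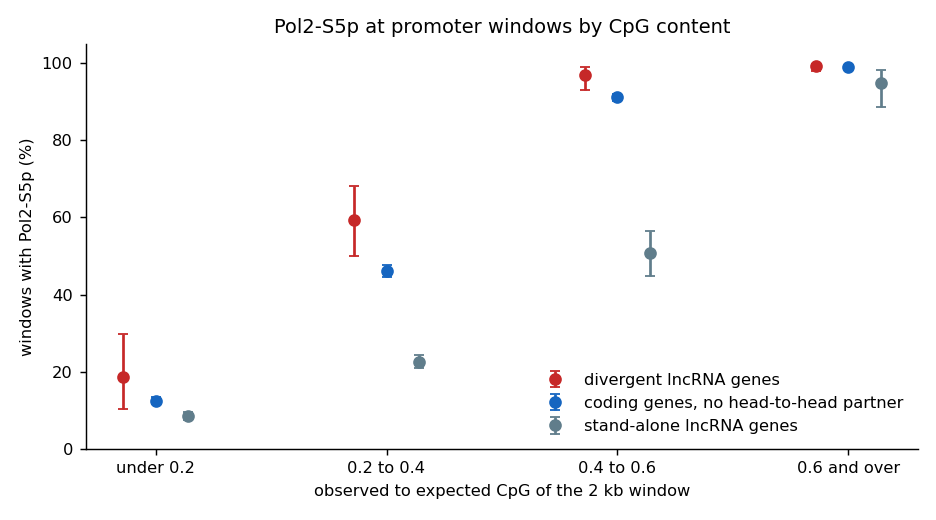
Share of 2 kb windows with Pol2-S5p, in percent, by the observed to expected CpG ratio of the window, with exact intervals at 95%, for divergent lncRNA genes, coding genes with no head-to-head partner and stand-alone lncRNA genes. The points lie together at 0.6 and over, between 94.9% and 99.3%, and lie apart at 0.4 to 0.6, where divergent lncRNA genes reach 97.0% and stand-alone lncRNA genes 50.7%.

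The next comparison asked whether the lncRNA and its coding partner had the same state. The same combination of marks was found at both windows in 757 of 778 pairs (97.3%, interval 95.9% to 98.3%). Much of this is built in, because the windows of a pair overlap by 2000 bp less the distance, a median of 1839.5 bp. By distance, it was 236 of 238 pairs up to 100 bp, 314 of 314 beyond that up to 300 bp, 137 of 139 up to 1000 bp and 70 of 87 up to 2000 bp (80.5%, interval 70.6% to 88.2%). A single region ran over both 5′ ends in 308 of 331 pairs with H3K27me3 at both windows (93.1%), in 630 of 663 with Pol2-S5p and in 569 of 604 with Pol2-S7p (94.2%).

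The states also shifted with distance. Active lncRNA windows made up 55.0%, 58.0%, 34.5% and 11.5% of pairs over these same steps of growing distance. PRCa windows made up 22.7%, 28.3%, 43.9% and 33.3%. Inactive windows were at 10.9%, 4.46%, 7.19% and 25.3%. The median distance was 130 bp in Active pairs, 223 bp in PRCa pairs, 167.5 bp in PRCr pairs and 454 bp where H3K27me3 stood alone.

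The 21 pairs with unlike states lay at a median distance of 1512 bp, and in most of them the coding window held the mark that the lncRNA window lacked. Pol2-S5p was at the lncRNA window only in 2 pairs and at the coding window only in 11. Pol2-S7p was at the lncRNA window only in 2 and at the coding window only in 8, and H3K27me3 in 1 and in 6. Hottip, an lncRNA at the end of the HoxA cluster, had H3K27me3 only, against PRCr at Hoxa13, the last gene of that cluster, 1895 bp away. Its window was covered for 2000 bp by an H3K27me3 region of 103600 bp and for 0 bp by Pol2-S5p, against 2000 bp and 1520 bp at Hoxa13. Gm26645 had H3K27me3 only, against PRCa at Gli3, a transcription factor of Hedgehog signalling, 1940 bp away. Both polymerase marks covered 0 bp of the Gm26645 window, against 1435 bp of the Gli3 window for each. Gm10863 had H3K27me3 only, against PRCr at Sox10, a factor of the neural crest. Gm44593 was Inactive, against PRCr at Pou3f4, a neural POU factor, and Gm29570 was Inactive, against PRCa at Ncoa2, a coactivator of nuclear receptors. The reverse was rarer. Gm36995 was Active, against H3K27me3 only at Cacna1f, a calcium channel of the retina, at a distance of 1702 bp. Gm16537 was PRCa, against Active at Cox14, an assembly factor of cytochrome c oxidase. Each of the last 2 lncRNAs had another coding gene within 10 kb on its own side, and the part of that gene in the difference was not tested.

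Since the windows overlap, the sides were next compared over flanks that share no sequence. Each flank ran outward from a 5′ end into its own gene. A single region over both 5′ ends still marks both flanks of the first 1 kb, so likeness there is partly built in. For Pol2-S5p, both flanks had the mark in 631 pairs, beside the 630 pairs with a single region over both 5′ ends. In the first 1 kb, Pol2-S5p was present on 82.0% of lncRNA flanks and 86.0% of coding flanks, against 37.4% over all lncRNA genes and 66.5% over all coding genes. It was on the lncRNA flank only in 7 pairs and on the coding flank only in 38, a difference of -3.98 percentage points (lncRNA minus coding, interval -5.03 to -2.38). Pol2-S7p was on the lncRNA flank only in 3 pairs and on the coding flank only in 40 (-4.76 points, interval -5.37 to -3.42), with backgrounds of 30.0% over all lncRNA genes and 58.6% over all coding genes. H3K27me3 was on the lncRNA flank only in 3 pairs and on the coding flank only in 25 (-2.83 points, interval -3.44 to -1.57), with backgrounds of 26.7% and 38.8%. This H3K27me3 difference was 0 points (interval -1.90 to 1.90) when each gene was read from its transcript start with the longest Pol2-S5p cover. With at least 50% of the flank covered, the differences were -19.0 points for Pol2-S5p, -15.8 for Pol2-S7p and -4.88 for H3K27me3. Where 1 bp of overlap was enough, the differences of the first 1 kb came mostly from distant pairs. Near pairs were not read apart at 50% cover. In the 620 pairs at most 500 bp apart, the differences at 1 bp of overlap were -0.81 points for Pol2-S5p (interval -1.72 to 0.48), -1.61 for Pol2-S7p and -1.45 for H3K27me3.

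The sides parted further out. From 1 kb to 3 kb, Pol2-S5p was on 48.5% of lncRNA flanks and 61.1% of coding flanks (-12.6 points, interval -16.1 to -8.78). Pol2-S7p was on 44.5% of lncRNA flanks and 54.4% of coding flanks (-9.90 points, interval -13.4 to -6.10). For H3K27me3 the shares were 34.3% and 38.2% (-3.86 points, interval -6.30 to -1.19). The 620 near pairs had -10.0 points for Pol2-S5p (interval -14.1 to -5.56) and -8.87 for Pol2-S7p (interval -13.0 to -4.44), while H3K27me3 had -2.26 points with an interval of -4.91 to 0.58. Another coding gene lay within 10 kb on the lncRNA side of 259 pairs. In the 519 pairs without such a gene the differences were larger, at -17.7 points for Pol2-S5p (interval -22.0 to -12.9) and -14.1 for Pol2-S7p (interval -18.2 to -9.40).

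The same measure was taken in pairs of coding genes and in coding genes with no head-to-head partner. Neither set was cleared of coding genes whose 5′ end overlaps that of an lncRNA gene on the other strand. The pairs of coding genes were not cleared of partners of the members. In 862 pairs of coding genes, with the gene on the plus strand counted first, the 1 kb to 3 kb flanks differed by -1.39 points for Pol2-S5p (interval -5.06 to 2.31) and -1.86 for Pol2-S7p (interval -5.49 to 1.82). In coding genes with no head-to-head partner, the upstream side was read from a stand-in start 160 bp upstream. There the upstream minus the coding side was -14.0 points for Pol2-S5p and -12.6 for Pol2-S7p, beside -12.6 and -9.90 points in the lncRNA pairs. Among Active coding genes the difference was smaller in the lncRNA pairs, and the intervals did not overlap for Pol2-S7p and touched for Pol2-S5p. These intervals hold the number of pairs with unlike flanks fixed and leave out its counting error. Pol2-S7p differed by -11.4 points in the 368 lncRNA pairs with an Active coding gene (interval -16.5 to -5.72), against -20.7 points in 5831 Active genes without a partner (interval -21.9 to -19.5). Pol2-S5p differed by -9.78 points (interval -15.4 to -3.65) in those lncRNA pairs, against -16.7 points (interval -17.9 to -15.4).

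**Figure D3:**
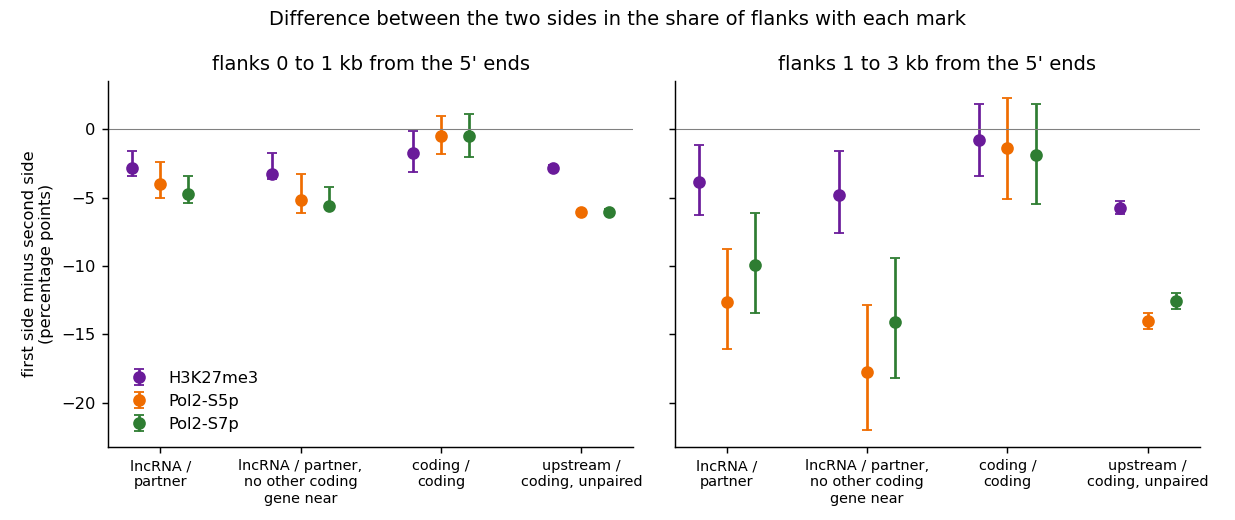
Difference in the share of flanks with each mark, in percentage points, as the lncRNA, plus-strand or upstream side minus the coding, minus-strand or downstream side, at 0 to 1 kb (left) and 1 to 3 kb (right). Intervals at 95% come from the split of the pairs whose sides differ, with the number of such pairs held fixed. The lncRNA pairs fall to -12.6 points for Pol2-S5p at 1 to 3 kb, while pairs of coding genes stay near 0 at -1.39 points.

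The reach of a region was measured from each 5′ end outward to the edge of the region that covered the middle of the pair. Pol2-S5p reached a median of 1474 bp on the lncRNA side and 5183 bp on the coding side of 649 pairs, and reached farther on the lncRNA side in 207 of them (31.9%). Pol2-S7p reached a median of 1947 bp on the lncRNA side and 8959 bp on the coding side of 583 pairs, and farther on the lncRNA side in 187 (32.1%). H3K27me3 had no such lean, with medians of 6313 bp on the lncRNA side and 3514.5 bp on the coding side and a longer reach on the lncRNA side in 162 of 316 pairs (51.3%). In coding pairs the Pol2-S7p region reached farther over the plus-strand gene in 49.9% of 775 pairs. In unpaired coding genes it reached farther upstream in 27.1% of 9963.

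Single pairs ran against this lean. The Pol2-S7p region at Gm11608 and Zdbf2 reached 215920 bp on the lncRNA side and 734 bp on the coding side. D330023K18Rik, paired with Gpr107, had a Pol2-S5p reach of 200291 bp on the lncRNA side and 483 bp on the coding side. Gt(ROSA)26Sor, the locus used for broad transgene expression, had 39533 bp of Pol2-S7p reach on its own side and 1434 bp over Setd5, a chromatin regulator. It had another coding gene within 10 kb on its side, while Gm11608 and D330023K18Rik had none within that distance. Their records of 6273 bp and 5835 bp ended far short of these reaches, and coding genes beyond 10 kb were not looked for. The widest H3K27me3 reach on an lncRNA side was that of Gm49481, paired with Tex33, at 482198 bp, and the next was E130018O15Rik, paired with Hmx1, a homeobox gene of sensory organs, at 352676 bp. Gm49481 had another coding gene within 10 kb on its side, while E130018O15Rik had none.

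Cover by distance from the coding 5′ end was read in finer steps, where cover is the percent of bases inside regions. Around Active coding genes, Pol2-S7p covered 65.7% of bases at 800 to 1000 bp on the lncRNA side and 72.3% at the same distance on the coding side of 368 pairs. The values for Active coding genes without a partner were 56.5% upstream and 76.5% downstream. With genes that had another coding gene upstream left out, Pol2-S7p covered 61.0% on the lncRNA side of 229 pairs, against 43.4% upstream of 2997 unpaired genes. At 4800 to 5000 bp it covered 35.0% on that lncRNA side, against 21.8% upstream of the unpaired genes, and Pol2-S5p covered 32.8%, against 26.0%. On the coding side the order turned round, with 68.2% Pol2-S7p cover at 800 to 1000 bp in those 229 pairs, against 72.4% in those unpaired genes. Around PRCr coding genes, H3K27me3 covered 70.0% of bases at 4800 to 5000 bp on the lncRNA side of 60 pairs, against 52.3% upstream of 1508 unpaired PRCr genes. At the same distance inside the coding gene it covered 73.2%, against 59.7%. Pol2-S5p covered 63.2% of bases at 800 to 1000 bp on the lncRNA side of these 60 pairs, against 45.3%. These covers carry no interval, and many neighbouring bases share a region.

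**Figure D4:**
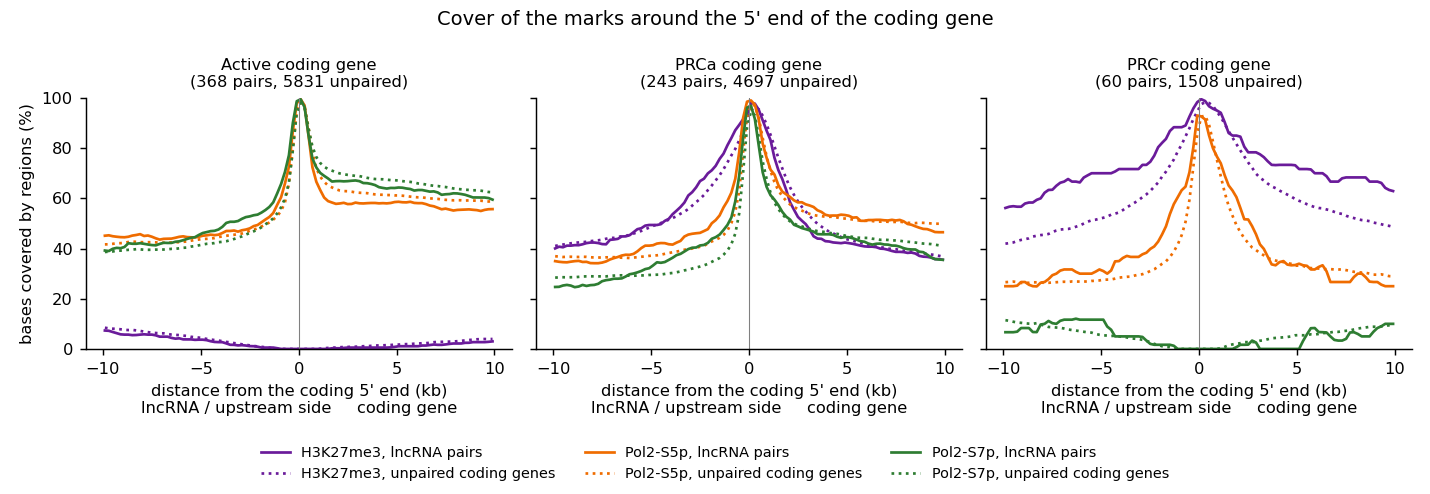
Percent of bases covered by regions of each mark against distance from the 5′ end of the coding gene in kb, with the lncRNA or upstream side on the left, for lncRNA pairs (solid) and coding genes with no head-to-head partner (dotted), by state of the coding gene. At Active and PRCa genes both polymerase marks of the lncRNA pairs are lower on the left than at the same distance on the right, at 800 to 1000 bp and at 4800 to 5000 bp. At 800 to 1000 bp on the left of Active genes the lncRNA pairs lie above the unpaired genes (65.7% against 56.5% for Pol2-S7p).

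Further in, the polymerase marks covered less of the lncRNA gene than of the coding gene in Active and PRCa pairs, and H3K27me3 had the opposite order in PRCa pairs. In records of at least 3 kb, beyond the first 1 kb, Pol2-S7p covered a median of 26.4% of the 254 Active lncRNA records and 93.7% of the 352 Active coding records. Pol2-S5p covered 22.0% of these lncRNA records and 81.4% of these coding records. Where no coding gene lay over the lncRNA body, the medians of the 146 Active lncRNA records were 5.59% for Pol2-S7p and 2.78% for Pol2-S5p, and 63 of them had no Pol2-S7p at all. In PRCr pairs H3K27me3 covered a median of 100% of 43 lncRNA records and 99.2% of 54 coding records, close to full cover on both sides. In PRCa pairs it covered a median of 31.3% of 135 lncRNA records and 6.25% of 218 coding records, with upper quartiles of 100% and 95.4%. Where no coding gene lay over the lncRNA body, the H3K27me3 median was 15.3% of 93 PRCa lncRNA records. In distance there was no lean. With a PRCa partner, the H3K27me3 region reached farther on the lncRNA side in 114 of 228 pairs. The lncRNA records were shorter, with a median of 6172 bp, against 24664.5 bp in coding records, so the same distance fills more of an lncRNA gene.

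Pairs were then grouped by the function of the coding partner, from lists of symbols and symbol families. Developmental transcription factors were the partners in 31 pairs, and 29 of these lncRNA windows had H3K27me3, against 42.7% of all divergent lncRNA windows. The lncRNA window was PRCa in 12, PRCr in 12, H3K27me3 only in 5, Active in 1 and Inactive in 1. That is 38.7% PRCa and 38.7% PRCr, near the 37.1% PRCa and 43.0% PRCr of all 307 coding genes of this list in the annotation, while all divergent lncRNA windows were PRCr at 7.46%. The lists were chosen with earlier results of these data known.

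Haglr, an lncRNA of the HoxD cluster, starts 84 bp from Hoxd1. Its H3K27me3 region spanned 131800 bp, chr2:74651800-74783599, reaching 111096 bp over the lncRNA side and 20619 bp over the Hoxd1 side. Pol2-S5p was a focal region of 1800 bp that reached 296 bp into Haglr and 1419 bp into Hoxd1, and no Pol2-S7p region touched the windows. Gm28793, within the same H3K27me3 region, starts 141 bp from Hoxd9 and was PRCa. Its Pol2-S5p region of 3600 bp and its Pol2-S7p region of 1400 bp both ended 14 bp short of the lncRNA 5′ end. The first 1 kb of Gm28793 thus had 0 bp of either, against 1000 bp of both in Hoxd9. Region edges lie on a grid of 200 bp, so a gap of 14 bp is finer than they resolve. Hoxaas2 starts 843 bp from Hoxa2, with 2 other coding genes within 10 kb on its side. It was PRCr, with H3K27me3 over 65525 bp of its side and 2231 bp of the other. These Hox genes set position along the body axis.

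Lhx1os starts 125 bp from Lhx1, a LIM homeobox gene of head and kidney formation, and was PRCr. Its H3K27me3 region of 30200 bp reached 17739 bp on the lncRNA side and 12335 bp on the Lhx1 side, and its Pol2-S5p region 4339 bp and 6535 bp, so both marks were close to symmetrical. Fendrr, an lncRNA required for heart and body wall development in mice, starts 1276 bp from Foxf1, a forkhead factor of lateral mesoderm. H3K27me3 covered both windows in a region of 172200 bp, and reached 160710 bp on the Fendrr side and 10213 bp on the Foxf1 side. Pol2-S5p had the opposite lean there, with 3110 bp on the Fendrr side and 24613 bp on the Foxf1 side. Another coding gene lay within 10 kb on the Fendrr side. Foxd2os, 384 bp from the forkhead gene Foxd2, was PRCa, and its Pol2-S5p region reached 4942 bp on the lncRNA side and 1673 bp on the Foxd2 side. Wt1os, 19 bp from Wt1, a zinc finger factor of kidney and gonad, was PRCa with 16310 bp of H3K27me3 reach on its side and 8870 bp on the Wt1 side. Pantr1, 926 bp from the neural POU gene Pou3f3, was PRCa. Gm16225 at Runx3, a factor of blood and sensory neurons, and Gm43050 at Tbx5, a heart and forelimb factor, had H3K27me3 alone, in regions of 233600 bp and 224400 bp. The only Active pair of the list was Gm26665 with Pou2f1, a broadly expressed POU factor, where Pol2-S7p reached 839 bp on the lncRNA side and 43878 bp on the Pou2f1 side.

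**Figure D5:**
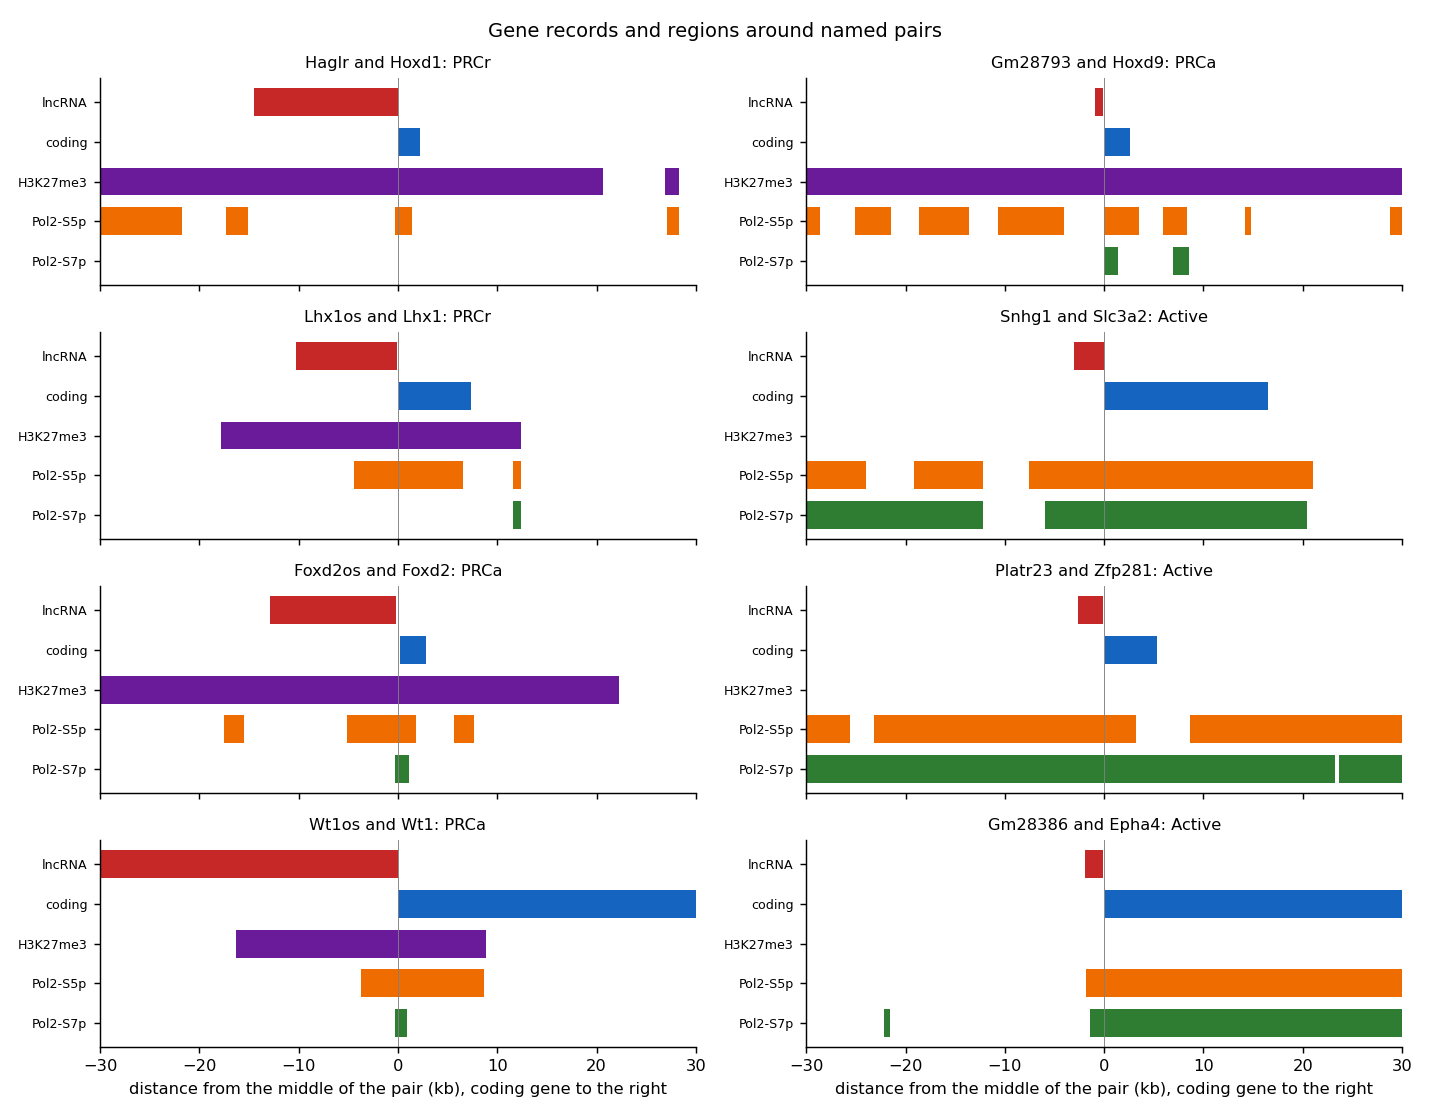
Gene records and regions of the 3 marks within 30 kb of the middle of 8 named pairs, drawn to scale with the lncRNA to the left and the coding gene to the right. H3K27me3 spans both genes of Haglr and Hoxd1 and of Lhx1os and Lhx1, while at Gm28386 and Epha4 both polymerase marks run to the right edge and reach 1719 bp (Pol2-S5p) and 1319 bp (Pol2-S7p) to the left of the lncRNA 5′ end.

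Of 27 pairs with ion channels and transporters, 19 had H3K27me3 at the lncRNA window, with 10 PRCa, 5 PRCr, 4 H3K27me3 only, 7 Active and 1 Inactive. Their shares of 37.0% PRCa, 18.5% PRCr and 25.9% Active lie near those of the 636 genes of the list, at 32.9%, 16.8% and 19.2%. Gm14204 at Slc32a1, the vesicular transporter of GABA, was PRCr, with a Pol2-S5p region of 5400 bp that reached 923 bp on the lncRNA side and 4432 bp on the coding side. Gm45533 at Htr6, a serotonin receptor, was PRCr as well. Gm2990 at Slc18a3, the vesicular transporter of acetylcholine, was PRCa. Gm13629 at Scn1a, a neuronal sodium channel, was Inactive, as was its partner, and the pair had the CpG-poor span shown above. Of 5 pairs with signalling ligands and receptors, 3 were PRCa, 1 was H3K27me3 only and 1 was Active, while the 191 genes of the list were PRCa at 52.9%, PRCr at 23.0% and Active at 7.85%. 5930412G12Rik at Fzd10, a receptor of Wnt ligands, was PRCa in an H3K27me3 region of 112200 bp. Its Pol2-S7p region reached 93 bp on the lncRNA side and 5555 bp on the Fzd10 side. Gm28386 at Epha4, an ephrin receptor, was Active, with Pol2-S7p reaching 1319 bp on the lncRNA side and 150488 bp on the Epha4 side. Gm30655, 1453 bp from the Hedgehog receptor gene Ptch1, had H3K27me3 only, against PRCr at Ptch1.

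Pairs with partners of general cell function were mostly Active, and so were most genes of each of these lists except that of ubiquitin and proteasome genes. Among 16 pairs with genes of RNA processing and translation, 12 lncRNA windows were Active (75.0%), 2 PRCa, 1 H3K27me3 only and 1 Inactive, while the 389 genes of the list were Active at 80.5%. The windows that were not Active included Gm16249 at Eif4e1b, an oocyte form of the cap-binding factor, with H3K27me3 only, and Gm45418 at Ddx60, a helicase of antiviral defence, which was Inactive. Gm37933 at Rps3a1, a ribosomal protein, was Active with Pol2-S7p reaching 842 bp on the lncRNA side and 11102 bp on the coding side. Among 13 pairs with genes of the cell cycle and DNA replication, 9 were Active (69.2%) and 4 PRCa (30.8%), near the 66.3% and 27.1% of the 181 genes of the list. Gm15728 at Rfc5 and 6330408M09Rik at Rfc4, which encode subunits of the clamp loader, were both Active. At Rfc4 Pol2-S5p reached 3806 bp on the lncRNA side and 39537 bp on the coding side, and at Rfc5 35060 bp and 30247 bp. Of 23 pairs with zinc finger (Zfp) genes, 17 were Active (73.9%), 4 PRCa and 2 Inactive, while the 397 genes of the list were Active at 63.5%. Of 14 pairs with ubiquitin and proteasome genes 10 were Active (71.4%) and 4 PRCa, while the 367 genes of the list were Active at 47.7%. Gm13778 at Psmc3, an ATPase subunit of the proteasome, had Pol2-S7p over 50333 bp on the lncRNA side, with another coding gene there, and 19190 bp on the coding side.

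Of 7 pairs with chromatin regulators, 4 were Active (57.1%) and 3 PRCa, near the 56.9% Active and 31.7% PRCa of all genes of the list. Gm47735 at Pcgf5, a Polycomb group gene itself, 11 bp away, was PRCa with H3K27me3 reaching 2298 bp on the lncRNA side and 3090 bp on the coding side. Of 4 pairs with mitochondrial proteins, 3 were Active, while the 111 genes of the list were Active at 84.7%. The Active pairs included 2810001G20Rik, 16 bp from Cox10, where the Pol2-S5p region was 600 bp and the Pol2-S7p region 800 bp wide. Platr23 was the sole member facing a gene of the pluripotency list, Zfp281, a zinc finger factor of stem cells. It was Active, with both polymerase marks over 2000 bp of each window, and its reach went against the common lean, with Pol2-S5p at 23050 bp on the Platr23 side and 3098 bp on the Zfp281 side.

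The members included 3 host genes of small nucleolar RNAs, which guide the modification of ribosomal RNA. Snhg1, 106 bp from Slc3a2, the heavy chain of amino acid transporters, was Active with scores of 26.8 for Pol2-S5p and 45.5 for Pol2-S7p, against medians of 10.8 and 12.7 over the lists. Pol2-S7p reached 5924 bp on the Snhg1 side, past the end of its 2969 bp record, and 20369 bp on the Slc3a2 side. The scores come from the peak caller and no source used here names their unit. Snhg10, 409 bp from Glrx5, a glutaredoxin of mitochondria, was PRCa with H3K27me3 over 281279 bp of its side and 1911 bp of the Glrx5 side. Snhg18, 148 bp from Sema5a, a guidance cue for axons, was PRCa within an H3K27me3 region of 3000 bp.

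The regions at these windows were often wide. At Active lncRNA windows the widest region touching the window had a median width of 20000 bp for Pol2-S5p and 26400 bp for Pol2-S7p, against medians of 2000 bp and 2200 bp over the lists. The H3K27me3 region had a median width of 14200 bp at PRCa, 38900 bp at PRCr and 15800 bp at H3K27me3-only windows, against 3400 bp over the list. Wide regions are more likely to touch any window, so these medians lie above those of the lists by construction. The Pol2-S5p region was narrower at PRCr windows, with a median of 5200 bp. When regions over 10 kb were left out of all lists, Active windows came to 17.7% and Inactive windows to 48.8%. When they were left out for H3K27me3 alone, PRCa came to 13.0% and Active to 64.7%. The shares of all lncRNA genes were not recomputed without wide regions, so the backgrounds given above do not apply to these values.

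Sequence motifs were counted on both strands in the window 250 bp before to 50 bp after the 5′ end. The GC box (GGGCGG) was present in 60.5% of divergent lncRNA genes, against 17.0% of all lncRNA genes, and in 65.1% of their coding partners, against 43.0% of all coding genes. The ETS motif (CCGGAAG) was present in 17.1% of divergent lncRNA genes, against 4.50% of all lncRNA genes. It was in 19.5% of their coding partners and 25.4% of coding genes that faced a coding gene, against 10.8% of all coding genes. By state of the lncRNA window, the ETS motif was in 106 of 371 Active windows (28.6%, interval 24.0% to 33.5%). In PRCa windows it was in 22 of 233 (9.44%, interval 6.01% to 13.9%), and in PRCr windows in 1 of 58. The GC box was in 71.7% of Active, 72.5% of PRCa, 39.7% of PRCr and 5.56% of Inactive windows. The CCAAT box was present in 40.1% of divergent lncRNA genes, against 38.4% of all lncRNA genes. TATAAA was in 4.50% of divergent lncRNA genes, against 13.6% of all lncRNA genes. These windows of a pair overlap in most cases, so the counts of lncRNA and partner share bases, and a match is not a bound site. The GC box and the ETS motif each hold a CpG, and the part of CpG content in their shares was not tested.

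Signals that bear on how far a transcript runs were counted on the sense strand of the first 1 kb of each gene, where the genes of a pair share no bases. The poly(A) signal AATAAA was present in 273 of 778 divergent lncRNA genes (35.1%, interval 31.7% to 38.6%) and in 128 of 773 coding partners (16.6%, interval 14.0% to 19.4%), against 35.6% of all lncRNA genes and 24.4% of all coding genes. In Active pairs it was in 41.8% of lncRNA genes and 17.4% of coding partners, and in PRCr pairs in 20.7% of lncRNA genes and 18.3% of coding partners. The 5′ splice site GGTAAG was present in 22.2% of divergent lncRNA genes (interval 19.4% to 25.3%) and in 193 of 773 coding partners (interval 22.0% to 28.2%), against 28.3% of all lncRNA genes and 29.3% of all coding genes. The intervals for the splice site overlap. AATAAA holds only A and T, and the part of base composition in these shares was not tested. In Inactive pairs the poly(A) signal was in 27.8% of lncRNA genes and 27.5% of coding partners.

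By annotation class, Active shares differed between the 4 classes with over 100 members, and the class of sense intronic records held only 3 members. The 303 lincRNA records were Active at 39.9% and PRCa at 34.3%, the 216 antisense records at 50.5% and 22.7%, the 142 processed transcripts at 54.2% and 28.2%, and the 114 records of the annotation's own class of bidirectional promoter lncRNAs at 55.3% and 33.3%. Of the members, 500 had a single annotated transcript and 680 carried provisional symbols (Gm numbers or Rik names). The median lncRNA record was 6873 bp in Active, 4182 bp in PRCa, 8462.5 bp in PRCr and 16334 bp in Inactive members. Of the 31 lncRNAs named after their partner, 15 were Active, 8 PRCa, 4 PRCr and 4 Inactive. Over all members these states had shares of 47.7%, 29.9%, 7.46% and 9.25%, in the same order.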

How the data were processed

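Chromatin immunoprecipitation sequencing of H3K27me3, Pol2-S5p and Pol2-S7p was done in F123 mESCs, with 1 library per mark. The authors sequenced 75 bp from a single end of each fragment, mapped the reads to an mm10 genome whose strain variants had been masked (Bowtie2 2.3.4.3), and called enriched regions in each library with BCP at its default settings, in histone mode per the file names. The deposited width of each region, an other kind of value, is in bp and a multiple of 200 bp. The deposited score has no stated unit and was used only within a list, to rank and filter regions. The lists hold no read counts, so depth was not used and the study's read threshold could not be applied. Genes that overlap or start close to others, which the study dropped, were kept.

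Genes came from GENCODE M21 and sequence from the RefSeq copy of GRCm38 (mm10). Records of the class TEC were not counted as lncRNAs. The gene 5′ end was the start site, and pairs whose 5′ ends overlap were left out. Coding genes counted as having no head-to-head partner can thus still face an lncRNA whose 5′ end overlaps theirs. Shares have Clopper-Pearson intervals at 95%. Differences between flanks have intervals from the split of the pairs with unlike flanks. The number of such pairs was held fixed, so its own counting error is left out. The unit of comparison is the pair, and no p-value was computed. The members and the 12 gene lists were chosen with earlier results of these data known, and symbols that share only a prefix with a family (Bmp2k, Ptchd3 and Ccn1 among the partners) were taken off the lists after their values were seen. Pairs were named by rule: up to 3 per list and state, by width of the H3K27me3 or else the Pol2-S5p region, all snoRNA hosts and known lncRNAs, up to 4 unlike pairs per mark and direction by distance, and the 4 longest reaches per mark. The functions were tested on simulated data. A total of 13 alternatives were tried, 3 of them (TEC records, other coding genes, bidirectional class) chosen after seeing the data. Python 3.11.15, NumPy 2.4.6, SciPy 1.17.1 and Matplotlib 3.10.9 were used.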

Additional observations from a re-analysis of the deposited data

How the results depend on the processing

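Of the recomputed values, 49 fell outside the interval of the reported value, 47 did not, and 0 changed sign. Only the members and their pairs were recomputed. The backgrounds of all lncRNA and all coding genes hold for the main setting alone and are no measure for the values below. With cover of at least 50% of the window required, Active came to 42.2%, PRCa to 22.5%, Inactive to 13.5%, like pairs to 92.5% and the flank differences to -4.88 (H3K27me3), -19.0 (Pol2-S5p) and -15.8 points (Pol2-S7p). With regions above the median score, Active came to 27.9%, PRCa to 9.13%, Inactive to 28.5% and the Pol2-S7p difference to -2.83. Without H3K27me3 regions over 10 kb, Active came to 64.7%, PRCa to 13.0%, PRCr to 2.31% and Inactive to 11.95%. Without any region over 10 kb, Active came to 17.7%, PRCa to 7.46%, PRCr to 3.73%, Inactive to 48.8%, and the differences to -2.31 (Pol2-S5p) and -3.21 (Pol2-S7p). Windows of 1 kb gave 95.2% like pairs. Flanks of 1 kb to 3 kb gave -3.86, -12.6 and -9.90 points for H3K27me3, Pol2-S5p and Pol2-S7p. Pairs at most 500 bp apart gave 55.2% Active, 6.77% Inactive, 99.7% like pairs and -1.45, -0.81 and -1.61 points in the same order. The transcript start with the longest Pol2-S5p cover gave 90.7% like pairs, 0 points for H3K27me3 and -5.14 for Pol2-S5p. That choice of start used Pol2-S5p itself, so its Pol2-S5p value is no separate check. For the 500 members with a single transcript there was no choice to make. With pairs whose 5′ ends overlap, Active came to 41.5%, PRCa to 34.7%, PRCr to 10.7%, Inactive to 6.85% and the differences to -1.26, -2.04 and -2.94. A further 3 alternatives were chosen after seeing the data. TEC records gave -5.42 points for Pol2-S7p. Pairs without another coding gene within 10 kb on the lncRNA side gave -5.20 (Pol2-S5p) and -5.59 (Pol2-S7p). The annotation's bidirectional class alone gave 55.3% Active, 33.3% PRCa, 4.39% Inactive and -0.88 points for both H3K27me3 and Pol2-S5p. The cause of these shifts was not tested beyond what each alternative removes. With 1 library per mark, the spread between cultures is unknown and the intervals are too narrow to stand for it. No paired analysis was possible because each mark had 1 library, so no samples share a replicate number. The flanks were compared within gene pairs, which are not replicates.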
